A study of Homo sapiens with 7 samples.

Results

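Elements numbered 20001 to 31000 are an unbroken range of 11000 design numbers in a reporter library tested in HepG2, an established human liver carcinoma cell line. A sequence here is a numbered element of 170 nucleotides, and a copy is that sequence in 1 orientation, named for example Seq_21437_fwd or Seq_21437_rev. The library tables listed 10819 of these numbers, 10750 of them in both orientations, 28 as a forward copy alone and 41 as a reverse copy alone. A minimum of 10 counts was required in every DNA library, which left 21348 of 21569 listed copies (98.98%). They are 15.9% of the 134435 copies that the same filter kept in the whole library. The number range was chosen by its activity along the numbers, so activity is described below and not tested. The difference between the orientations was not used in that choice and was tested.

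The study asked, per its title, about transcription factor function and patterns of gene regulation in HepG2 cells. The groups used here were 3 DNA libraries and 3 RNA libraries of the same cell line, both carrying the same lentiviral reporter library, plus 1 plasmid library that assigned each barcode to an element. Virus was made in 293FT cells, and RNA and DNA were taken 48 hours after infection from 8 wells per replicate. Totals were 34860651 to 44258011 counts per DNA library and 108324310 to 114738370 counts per RNA library. The libraries hold only reporter barcodes, so the cell line could not be checked against marker genes. Nothing in the labels says that the replicates came from separate infections, so every SD and p-value covers only how these libraries vary, and that variation may be technical.

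In a massively parallel reporter assay, each element is placed beside a minimal promoter and a transcribed barcode. A lentivirus inserts the constructs into the genome, and an element that enhances transcription gives more barcode RNA per integrated barcode DNA. A classical enhancer works in either orientation, whereas a promoter-like element can favour 1 direction. Activity below is the log2 of RNA over DNA relative to the centre that TMM scaling sets over all copies, so a value of 0 is that centre and not the level of an inactive element. None of the tables used here ties an element number to its bases, its class or a genome position, so elements are named by number alone.

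The following sequences show what was counted. The second orientation of the library came from a custom primer pair, and the runs in capitals are the last 15 bases at the 3′ end of each of its primers.

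5BC-AG-f01B: TCGGTTCACGCAATG

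5BC-AG-r01B: AGGACCGGATCAACT

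Barcodes are printed below in lower case for Seq_21437, the most active sequence of the least active block, because its values rest on counts of such tags. The first 3 in alphabetical order are given for each orientation, of 60 barcodes assigned to the forward copy and 51 assigned to the reverse copy. The orientations of this sequence shared 0 barcodes, so their counts came from separate tags.

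Seq_21437_fwd: aaaataaacttacat

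Seq_21437_fwd: aaacgtacttactca

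Seq_21437_fwd: aaatctacagtgcca

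Seq_21437_rev: aacagttcccctcac

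Seq_21437_rev: aacgtactaaataat

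Seq_21437_rev: aatccgattaccact

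Over the whole range, activity spanned log2 -1.94 to 4.25, with a median of 0.24 and quartiles of -0.29 and 0.98. The rest of the library had a median of -0.08. Of the 21348 kept copies, edgeR called 5217 (24.4%) higher by 2-fold or more in RNA relative to DNA, with 17.7% over all copies tested. In all, 10330 (48.4%) were called higher at any size, with 35.2% over all copies. A further 4946 (23.2%) were called lower, with 32.2% over all copies. The range was picked by these same values, so nothing is read from the gap to the background. Where the centre lies is a choice of scaling, and with library totals alone activities shifted by a median of -0.43, the median of the range was -0.18 and 7227 copies were called higher and 9676 lower. Higher calls then made up 42.8% of all calls in the range, compared with 67.6% under TMM. At least 4-fold higher were 725 copies (3.40%), with 2.18% over all copies, and 80 (0.375%) were at least 8-fold higher, with 0.179% over all.

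The 11 consecutive blocks of 1000 numbers differed by up to 1.46 in their median log2 activity. Numbers 21001 to 22000 formed the least active block, with a median of -0.42. Numbers 23001 to 24000 formed the most active one, with a median of 1.04. Over the 3 replicates, scored as log2 of (RNA CPM + 1) over (DNA CPM + 1), these medians were -0.30, -0.32 and -0.32 in the least active block and 0.91, 0.91 and 0.89 in the most active one. The SD over replicates was 0.00449 to 0.0245 in every block, so replicate spread was small beside the distance between these 2 blocks.

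In the least active block, 54 of 1883 copies (2.87%) passed the 2-fold call. In the most active block, that count was 1010 of 1940 (52.1%). Called lower were 1080 copies (57.4%) of the former and 79 (4.07%) of the latter. The next block, 24001 to 25000, held 849 such active copies (44.3%) at a median of 0.85. Of 69 complete blocks of 1000 numbers in the library, none had a lower median than 21001 to 22000. Above the median of 23001 to 24000 lay 6 blocks elsewhere in the library, up to 1.25.

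With library totals alone, the medians of 2 blocks stayed above 0, those at 23001 and 24001, compared with 9 under TMM, and the order of the blocks rests on differences that this choice leaves in place.

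The remaining 8 blocks lay between these extremes. Medians were 0.04 at 20001 to 21000 and -0.06 at 22001 to 23000, on either side of the least active block. From 25001 onward the medians of consecutive blocks were 0.41, 0.38, 0.20, 0.06, 0.14 and 0.29. Activity in those 6 blocks was thus lowest at 28001 to 29000, where 284 copies (14.5%) were at least 2-fold higher. The share of such copies was 28.4% at 25001, 26.1% at 26001, 20.1% at 27001, 20.5% at 29001 and 23.9% at 30001, naming each block by its first number.

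Borders between blocks of 1000 did not mark where activity changed. A least-squares search for steps in the mean of both orientations, with runs of at least 100 numbers, placed 9 steps and so split the range into 10 runs. Forward copies alone and reverse copies alone each gave 9 steps as well. Of the 9, 7 lay at the same number in both orientations and in their mean, and the largest shift was 62 numbers. In each replicate alone the search placed 7 steps, which were the same 7 in every replicate to within 7 numbers, and on this scale, which the pseudocount compresses, it did not place the steps after 27956 and after 28687. Because the runs were drawn from these values, differences between them are a description.

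The largest step came after number 20556, with a run median of 0.48 before it and -0.42 after it. All 3 replicates placed this step at exactly 20556. The low run lasted from 20557 to 22556, exactly 2000 numbers, and its medians by replicate were -0.30, -0.34 and -0.32. Within it 120 of 3778 kept copies (3.18%) were at least 2-fold higher. The least active block of 1000 therefore lay wholly inside a longer low run.

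After 22556 came a short run of 140 numbers with a median of 0.19. The most active run followed, from 22697 to 24687, with 1991 numbers, a median of 1.04 and 2006 of 3854 copies (52.1%) at least 2-fold higher. Next were 2001 numbers, 24688 to 26688, at a median of 0.42, and then 26689 to 27956 at 0.21. Runs from 27957 to 28687 and from 28688 to 28921 had medians of 0.02 and 0.36. The second low stretch, 28922 to 29218, held 297 numbers at a median of -0.29, with 22 of 587 copies (3.75%) at least 2-fold higher. From 29219 to 31000 the median was 0.31.

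A block of 1000 can therefore mix stretches of unlike activity. The block at 22001 to 23000 held part of the low run, the short run and the start of the most active run. Its quartiles of -0.50 and 0.78 accordingly lay further apart than those of the least active block, at -0.62 and -0.11. The block at 20001 to 21000 likewise joined an active and a low stretch, with quartiles of -0.42 and 0.69.

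The ends of the range were set by number. Just outside its start, Seq_20000 had log2 activities of 0.05 forward and 0.37 reverse, and just inside it Seq_20001 had 0.83 and 0.82. At its far end Seq_31000 had 0.34 and -0.09, and just outside it Seq_31001 had 0.17 and 0.49. Seq_20001 was the most active of these neighbours, and its orientations lay 0.01 apart. At the border of the filter, 21 kept copies had a lowest DNA count of 10, with activities from -1.94 to 1.84. Just outside it, 15 listed copies had a lowest DNA count of 9, with RNA totals of 39 to 324 over the 3 libraries, compared with 35 to 372 for the 21 just inside.

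Likeness of neighbouring numbers reached over long distances. Over 10183 pairs of numbers that lay 1 apart, the Pearson correlation of activity was 0.27 and the Spearman correlation 0.31. At a distance of 100 numbers the Pearson value was still 0.26, and at 500 it was 0.17. After each run's mean was taken away it was 0.002 at distance 1 over all runs together. Run by run it was between -0.06 and 0.03, except in 2 short runs, those of 140 numbers from 22557 (0.18 over 131 pairs) and of 234 numbers from 28688 (0.18 over 217 pairs). Such pairs share libraries and normalization, so these correlations are a description. The runs were drawn from these same activities, so taking their means away is bound to lower the correlation. Within the low run, 4.52% of sequences were at least 2-fold higher in either orientation, and of the 74 that had a measured next number, 1.35% were followed by another active one. In the most active run the corresponding shares were 61.8% and 62.2%, and in those 2 short runs 18.4% and 25%, and 31.9% and 42.9%.

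Inside the least active block, activity was tightly packed around its median. Of its 1883 copies, 994 (52.8%) lay within 0.25 log2 units of it. The 10th and 90th percentiles were -0.76 and 0.27, and the 99th was 1.71. Active copies were thus a thin tail, and 11 of them were at least 4-fold and 3 at least 8-fold higher. In single replicates 2.55%, 2.28% and 1.97% of its copies reached 2-fold on the scale with a pseudocount, compared with 46.1%, 45.7% and 44.0% in the most active block.

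The 54 active copies of the least active block belonged to 38 of the 915 sequences measured in both orientations. Both orientations were called for 16 of these sequences, the forward copy alone for 11 and the reverse copy alone for 11. These copies held 1.99% of the block's DNA counts and 8.30% of its RNA counts. They did not sit in 1 cluster, since the gap from 1 active sequence to the next ranged from 2 to 146 numbers with a median of 15. Their median barcode number was 64.5, and that of the other copies was 76.

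Orientation gave a second measurement of each rare active sequence from other barcodes, since none of the 38 had a barcode in both orientations. For the 27 active forward copies, the reverse copy of the same sequence had a median activity of 1.16, and 23 of these 27 were above 0. For the 27 active reverse copies, the forward partner had a median of 1.19, and all 27 were above 0. Over the whole block the median was -0.32 for forward copies and -0.52 for reverse copies. Of the reverse partners 25 of 27 lay above the block's reverse median, and the 2 below it were those of Seq_21965 and Seq_21110. A partner's counts had no part in calling the copy. Of 48 copies that were at least 2-fold higher in replicate 1, 29 (60.4%) were so in both other replicates, compared with 72.5% to 81.3% in the other 10 blocks.

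Seq_21437 had the highest mean activity of the block. Its forward copy gave DNA counts of 282, 196 and 197 and RNA counts of 3576, 4180 and 3732. The reverse copy gave 213, 133 and 183 DNA counts and 3114, 3058 and 4196 RNA counts. Scaled for depth, the log2 ratios with a pseudocount were 2.52, 2.95 and 2.80 forward and 2.66, 2.96 and 3.05 reverse, so all 3 replicates were high in both copies. The fitted activities were log2 2.98 (SE 0.09) forward and 3.18 (SE 0.14) reverse, and the orientations did not differ beyond their error (edgeR interaction, difference -0.20, SE 0.18, adjusted p = 0.402).

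Seq_21985 was the second and held the most active single copy of the block. Its forward counts were 265, 184 and 318 in DNA and 6520, 7074 and 6109 in RNA. Its reverse counts were 150, 125 and 182 in DNA and 2024, 1842 and 2017 in RNA. The forward copy reached log2 3.56 (SE 0.13), an 11.8-fold excess, and the reverse copy 2.56 (SE 0.11). This sequence was stronger as a forward copy by 1.00 (SE 0.21, adjusted p = 0.000725), and the forward copy was the higher one in each of the 3 replicates.

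Seq_21980, only 5 numbers before it, had activities of 2.52 forward and 3.20 reverse, and here the reverse copy was stronger (difference -0.68, SE 0.13, edgeR adjusted p = 0.000126). Seq_21483 had 2.59 forward and 2.58 reverse. Seq_21222 had 2.56 and 2.57. In these last 2 sequences the orientations differed by 0.01 in size, with adjusted p of 0.973 and 0.963.

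The other 7 of the 12 highest sequences were lower. Seq_21269 had log2 activities of 1.88 forward and 1.79 reverse, Seq_21812 had 1.87 and 1.40, and Seq_21988 had 1.59 and 1.64. Seq_21135 had 1.26 and 1.75, Seq_21062 had 1.94 and 1.05, and Seq_21449 had 1.19 and 1.42. Seq_21728 reached 1.94 as a reverse copy but 0.92 as a forward copy, just under 2-fold. Of the 12, 6 differed between orientations at an adjusted p under 0.05, with 3 stronger forward and 3 stronger reverse. Among the 3 stronger forward, Seq_21062 was uneven, with differences by replicate of 1.34, 0.15 and 0.56 on the scale with a pseudocount. Without replicate 1 its forward activity was 1.59.

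Active copies with few barcodes were checked one by one, chosen after their values were seen. Only 4 of the 54 carried fewer than 20 barcodes, and they were both orientations of Seq_21721 and of Seq_21749. Seq_21721 rested on 1 barcode per orientation, with 16, 28 and 20 DNA counts and 186, 194 and 120 RNA counts forward. Its activities were 1.83 (SE 0.30) forward and 2.16 (SE 0.25) reverse. Seq_21749 had 6 barcodes per orientation and activities of 1.41 and 1.25. A value on 1 barcode has no second tag to compare it with.

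Active in 1 orientation alone, with a called difference, were 18 sequences of the block, and the 6 with the largest difference are given here as a description because they were picked for it. Seq_21817 gave 630, 502 and 600 DNA counts and 5102, 4234 and 4508 RNA counts as a forward copy. As a reverse copy it gave 554, 393 and 308 DNA counts and 1018, 971 and 770 RNA counts. It carried 152 forward and 164 reverse barcodes, so both values were well sampled, and its activity was 1.87 forward against 0.03 reverse.

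Seq_21965 had activities of 1.17 forward and -0.58 reverse, Seq_21110 had 1.15 and -0.54, and Seq_21114 had 1.43 and 0.04. The opposite held for Seq_21339, at 0.09 forward and 1.56 reverse, and Seq_21285, at 0.02 and 1.41. In Seq_21965 and Seq_21110 the weaker orientation lay just below the block's reverse median. In the other 4 it lay near 0, above the block's upper quartile of -0.11 but below its 90th percentile of 0.27. Seq_21110 forward was the least sampled, with 72, 44 and 26 DNA counts.

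The lowest copies of the block carried less RNA than DNA relative to the centre. Among copies with at least 20 barcodes, the 3 lowest were Seq_21123_rev at -1.27 (SE 0.26), Seq_21950_rev at -1.20 (SE 0.13) and Seq_21494_rev at -1.16 (SE 0.13). All 3 were reverse copies, and their forward partners had -0.16, -0.14 and -0.52. Seq_21950_rev gave 304, 296 and 263 DNA counts and 280, 269 and 270 RNA counts. The lowest copy of any barcode number, Seq_21333_rev at -1.94 (SE 0.52), rested on 4 barcodes and 15, 7 and 13 RNA counts and sat at the filter border.

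The most active sequences of the whole range lay elsewhere. Of the 8 with the highest mean of both orientations, 3 were in the block 23001 to 24000, 2 in 24001 to 25000, and 1 each in those starting at 26001, 27001 and 29001. Seq_27637 was the highest, from a block with a median of only 0.20. Its forward copy gave 385, 285 and 511 DNA counts and 14341, 15674 and 14337 RNA counts. Its reverse copy gave 503, 424 and 726 DNA counts and 23700, 24432 and 20874 RNA counts. Activities were 4.10 (SE 0.16) and 4.25 (SE 0.18), which is 17.2-fold and 19.0-fold, and the orientations did not differ beyond their error (difference -0.14, SE 0.30).

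The next were Seq_23685 at 3.68 forward and 3.96 reverse, Seq_23786 at 3.61 and 3.79, and Seq_23079 at 4.02 and 3.32. Seq_26395 had 3.49 and 3.76, Seq_24019 had 3.56 in both, Seq_24010 had 3.38 and 3.73, and Seq_29753 had 3.61 and 3.33. Replicate 3 gave the lowest value for the copies of these 8 sequences, except for Seq_23685_fwd and both copies of Seq_24010. Each of the 8 was more than 8-fold higher in both orientations, whereas the 3 copies of the least active block that reached 8-fold came from 3 different sequences. Among the 8, a called difference between orientations was found in Seq_23079 (0.70, SE 0.20, edgeR adjusted p = 0.00938).

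Orientation was compared over the 10582 sequences kept in both orientations. Stronger as a forward copy were 2519 (23.8%), and 24.7% of all sequences tested in the library were so called. Stronger as a reverse copy were 1027 (9.71%), with 7.68% over all sequences tested. Both counts fell when a replicate was left out. The forward count was 1733 without replicate 1, 1683 without replicate 2 and 1792 without replicate 3. The reverse count was 665, 673 and 773 in the same order. Differences of at least 2-fold were called for 289 sequences (2.73%) in favour of the forward copy, with 2.24% over all, and for 104 (0.983%) in favour of the reverse copy, with 0.662% over all. The forward share was thus near its background and the reverse share was above it over all activities. Among sequences of like activity the reverse share lay on either side of that of the rest. In 10 equal bins of mean activity over the whole library, numbered from the lowest, bins 7 to 10 had reverse shares of 9.07%, 14.2%, 18.7% and 18.0% in the range, compared with 9.32%, 14.9%, 19.1% and 16.6% in the rest. In bins 1 to 6 they were 1.24%, 1.15%, 2.41%, 1.97%, 4.84% and 5.68% in the range. The rest had 1.21%, 1.64%, 2.35%, 2.59%, 3.455% and 5.52% there. The part of activity in these shares was not tested.

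Forward activity exceeded reverse activity by a median of 0.14 log2 units in the range and 0.19 in the rest of the library. By replicate, with a pseudocount of 1 CPM, the medians were 0.117 ± 0.00775 (SD, n = 3) in the range and 0.154 ± 0.0117 (SD, n = 3) in the rest. The range minus the rest was -0.0369 ± 0.00579 (SD, n = 3), in the same direction in every replicate. An exact two-sided sign-flip permutation test gave p = 0.25, the smallest that 3 replicates allow, so this test cannot pass 0.05 here.

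The orientation difference varied with activity. In the same 10 bins, the median difference of the range's own sequences was 0.16 in the lowest bin, 0.27 in the fourth and -0.01 in the highest. In bins 6, 7 and 8 the replicate means of the range and of the rest differed by 0.00137 ± 0.0164, 0.0029 ± 0.00369 and 0.00301 ± 0.00177 (SD, n = 3). In bins 1, 2 and 3 the range minus the rest was -0.0243 ± 0.0199, -0.0401 ± 0.00407 and -0.0311 ± 0.0101 (SD, n = 3), each with an exact permutation p = 0.25. In bins 4, 5, 9 and 10 it was -0.00548 ± 0.0106, -0.0191 ± 0.0138, 0.0281 ± 0.0192 and -0.0044 ± 0.00888 (SD, n = 3), so bin 9 went the other way. Range minus rest was also above 0 in bins 6, 7 and 8. The exact permutation p was 0.25 in bins 5, 7, 8 and 9 too. The range held 8.37% of its sequences in the lowest bin and 13.2% in the highest, and none of the 10 bins can give a p below 0.25.

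Blocks differed in how often the reverse copy was the stronger one. In the least active block 202 of 915 sequences (22.1%) were stronger forward and 43 (4.70%) stronger reverse. In the most active block these were 230 of 964 (23.9%) and 136 (14.1%). The forward share was between 21.7% and 25.1% in all 11 blocks, while the reverse share ran from 4.70% to 14.1% and was highest in the 2 most active blocks. The median standard error of activity was 0.130 in the least active block and 0.104 in the most active one, and its part in these shares was not tested.

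The activities of forward and reverse copies were also less correlated in the least active block than in the other blocks. Across its sequences the Pearson correlation between orientations was 0.66 and the Spearman correlation 0.44. In the other 10 blocks the Pearson values were 0.77 to 0.87 and the Spearman values 0.73 to 0.84. The second low stretch, 28922 to 29218, was like the least active block, with 0.64 and 0.46. Quartiles of activity in the least active block were also closer together than in any of the other 10 blocks, which was not tested as a source of the difference. The sequences share their libraries, so these correlations are a description.

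Single sequences with large orientation differences were found across the range. Seq_23739 gave 215, 194 and 220 DNA counts and 2305, 2041 and 2119 RNA counts forward. As a reverse copy it gave 379, 304 and 248 DNA counts and 702, 671 and 594 RNA counts. The forward copy was active at 2.24 and the reverse copy lay at the centre, at -0.03, which made the largest forward difference among sequences with at least 10 barcodes per orientation (2.27, SE 0.15, edgeR adjusted p = 2.57e-15).

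Seq_28365 was the largest in the other direction. It gave 196, 144 and 162 DNA counts and 801, 887 and 869 RNA counts forward, and 134, 78 and 107 DNA counts and 2244, 2291 and 2370 RNA counts reverse. Both copies were active, at 1.23 forward and 3.32 reverse (difference -2.09, SE 0.16, adjusted p = 3.59e-13). Seq_26190 was like it, with 1.22 and 2.88.

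Forward-biased sequences with an unremarkable reverse copy were Seq_20723, at 1.85 and -0.29, and Seq_22716, at 1.57 and -0.26, while Seq_27554 had 1.03 and -0.86. Among reverse-biased ones, Seq_27216 had -0.29 and 1.51 and Seq_24730 had 0.05 and 1.80. Seq_28672, at -1.13 and 0.74, had only 10 barcodes and 20, 12 and 21 DNA counts as a reverse copy. Its standard error of 0.43 was correspondingly the largest of these 10 differences.

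Representation in the plasmid library, which the choice of the range did not use, also changed along the numbers. A listed copy carried a median of 82 barcodes in the range and 86 in the rest of the library. By block, the median was lowest at 28001 to 29000, with 69, and at 21001 to 22000, with 72, and highest at 23001 and 24001, with 90 in each. The least active block also lost the most copies to the DNA filter, with 68 of the 221 that fell below it, and kept 96.5% of its listed copies compared with 98.5% to 99.7% in the other blocks.

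The barcode distribution of the low run was wide. In the run 20557 to 22556, 11.5% of copies had fewer than 20 barcodes and 8.07% had 200 or more. In the most active run, 22697 to 24687, these shares were 1.45% and 2.25%, and in the library as a whole 3.997% and 2.94%. Both tails were thus heavier in the low run, and its 5th and 95th percentiles were 9 and 228 barcodes, compared with 35 and 172 in the most active run. The second low stretch, 28922 to 29218, was unlike it, with a median of 57 barcodes and no copy at 200 or more among 588. There is 1 plasmid library, so these shares have no replicate.

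The barcode numbers of both orientations of a sequence were alike in rank, with somewhat more in reverse (medians of 79 forward and 85 reverse in the range, and 83 and 90 in the rest). Across sequences listed in both orientations, the Pearson correlation of forward with reverse barcode number was 0.93 in the range and 0.92 to 0.94 in its blocks. In the least active block 139 sequences had fewer than 20 barcodes in either orientation, and 83 of these had so in both. Across 110 windows of 100 numbers, the median activity went with the median barcode number, with a Pearson correlation of 0.68 and a Spearman correlation of 0.72, as a description of windows that share their libraries. Across copies within a block, the Spearman correlation was -0.06 in the least active block, 0.13, 0.19 and 0.14 in those at 28001, 27001 and 29001, and between -0.07 and 0.04 in the other 7. The part of barcode number in the difference between blocks was not tested.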

How the data were processed

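The members and lists were chosen with earlier results of these data known. The deposited tables hold whole-number counts per copy and library, per the file headers, and the association table lists each barcode with its element. The authors' deposited pooled table, with CPM, an RNA over DNA ratio and its log2, was used only to check that its totals match the summed counts. BWA 0.7.17 and the build hg38 are named in the submitters' processing notes, with no role. Whether reads or molecules were counted is not stated.

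Activity was tested over the 134435 copies that reached 10 counts in every DNA library by edgeR 4.0.16 (quasi-likelihood, TMM, robust) in R 4.3.3, with molecule as the only term. Orientation was tested as the interaction of molecule with orientation over 66769 sequences, where each library gave a forward column and a reverse column of equal library size. The columns of the same library entered as independent samples, with no term for the library, and the effect of this on the calls was not tested. Calls are Benjamini-Hochberg adjusted p-values under 0.05 over all features. Standard errors are log2 values divided by the root of F. Replicate values compare same-numbered libraries as log2((RNA CPM + 1)/(DNA CPM + 1)) after TMM scaling, which understates changes of rare copies. A single count equals 0.0226 to 0.0287 CPM by DNA library and 0.00872 to 0.00923 CPM by RNA library. Both tests were tried on simulated data, in which few copies changed and forward and reverse counts were drawn separately. That setting differs from these data, so nothing is read from it about the calls here.

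Steps were placed where a split of the numbers lowered the residual sum of squares by at least 8 squared log2 units. Named in the least active block were the 12 highest sequences by mean of both orientations with at least 10 barcodes each, up to 6 active in 1 orientation with a called difference, and the 3 lowest copies with at least 20 barcodes. Named over the range were the 8 highest sequences and the 5 largest orientation differences each way. Alternatives were library size alone, DESeq2 1.42.0, limma 3.58.1, other filters, shifted blocks, windows of 100 and left-out libraries. Element bases, classes and positions were not used here.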

Additional observations from a re-analysis of the deposited data

Results flagged for a closer look

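The forward and reverse copies of 15 named sequences differed by the edgeR interaction test, which compares the same RNA to DNA contrast between the orientations. Each was named for a large difference, so its size is a description of the extremes. In the least active block the forward minus reverse log2 difference was 1.85 in Seq_21817 (also among the 5 largest of the range), 1.75 in Seq_21965, 1.69 in Seq_21110, 1.38 in Seq_21114, -1.47 in Seq_21339 and -1.39 in Seq_21285. Elsewhere in the range it was 2.27 in Seq_23739, 2.14 in Seq_20723, 1.89 in Seq_27554 and 1.83 in Seq_22716. The reverse copy was the stronger one in Seq_28365 (-2.09), Seq_28672 (-1.86), Seq_27216 (-1.80), Seq_24730 (-1.75) and Seq_26190 (-1.66).

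RNA was also counted for copies that no comparison used. Of 21 listed copies of the range without a DNA count in any library, 19 had RNA counts, and 7 had more than 8.76. That level is 3 DNA counts scaled to the depth of the RNA libraries (counting error only). It holds for a copy with RNA and DNA in the ratio of the library totals. More active copies give more RNA for the same DNA, and the forward copy of Seq_27637 was 17.2-fold higher. The level is thus not an upper limit for active copies, and the activity of these 7 was not tested. The highest had 64 RNA counts over the 3 libraries. Of the 21 copies, 18 carried 1 barcode in the plasmid library.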

How the results depend on the processing

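Numbers 21001 to 22000 stayed the least active block under all 12 alternatives for activity, and in blocks shifted by 500 numbers the least active one began at 21501 (median -0.42, 57 copies at least 2-fold higher). With library totals alone, 2764 copies of the range were at least 2-fold higher and 9676 lower, the least active block held 25 active copies and its median was -0.85. By limma on log2(CPM + 1), that median was -0.32, the spread of block medians 1.23 and the median orientation difference 0.11. The spread was 1.44 among copies with at least 20 barcodes. Leaving out 1 replicate gave medians of the least active block from -0.45 to -0.41 and spreads from 1.44 to 1.46. It left 1683 to 1792 sequences stronger as a forward copy and 665 to 773 stronger as a reverse copy, with median orientation differences from 0.140 to 0.155. The correlation of neighbours was 0.266 for forward copies, 0.244 for reverse copies and 0.251 for a forward copy against the next reverse copy. In windows of 100 the lowest median was -0.46. Of 1037 refits of 78 named copies and 15 named differences, 1012 kept direction and call, 11 gained a call and 14 turned sign. Those 14 were all of copies that were near 0 and not called in the main fit. A call here is an adjusted p under 0.05 at any size. With library totals alone some active copies kept it but fell under 2-fold, such as Seq_21135_fwd (0.83), Seq_21062_rev (0.62), Seq_21965_fwd (0.74), Seq_21110_fwd (0.72) and Seq_21285_rev (0.98). Copies that turned sign under library totals alone were Seq_21817_rev (-0.40), Seq_21339_fwd (-0.34), Seq_21285_fwd (-0.41), Seq_21114_rev (-0.38) and Seq_24730_fwd (-0.38). With a replicate or DNA replicate 3 left out, Seq_21817_rev took values from -0.10 to 0.067, Seq_21339_fwd from -0.085 to 0.23, Seq_21285_fwd from -0.061 to 0.069, Seq_21114_rev from -0.010 to 0.099 and Seq_24730_fwd from -0.078 to 0.19. The cause of these changes was not tested. Same-numbered DNA and RNA libraries deviated together only slightly (correlations of 0.0345, 0.0459 and 0.0516, each the highest for its number, as a hint from the data). Those of unlike number had correlations from -0.0348 to -0.00957. The main edgeR fits did not treat the libraries as paired, whereas the replicate values compare same-numbered libraries. With a replicate block, 5212 copies were at least 2-fold higher, 10350 higher and 4973 lower, and 2542 and 1031 sequences were stronger forward and reverse. Depth limits copies with few DNA counts, and 221 copies fell below the filter.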

Other observations

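The median SD of a copy's activity over the 3 replicates, on the scale with a pseudocount, which compresses rare copies, was 0.140 to 0.153 over the 11 blocks. The median standard error of the edgeR fit ran from 0.104 in the most active block to 0.130 in the least active one. DNA counts per barcode had block medians of 8.61 to 9.81, highest in the least active block.

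Even and odd numbers had similar activity in the runs. In the low run the median was -0.40 for even and -0.43 for odd numbers, and in the most active run 1.05 and 1.01. Of the 110 windows of 100 numbers, 1 held no copy that was at least 2-fold higher, and the most active window held 57.1% such copies.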
